A study of Rattus norvegicus with 9 samples.

Results

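Insulin-like growth factors (IGFs) and their binding proteins were followed in rat bone as 9 genes of the 23026 in the deposited tables: the ligands Igf1 and Igf2, the receptor Igf1r, and the binding proteins Igfbp2, Igfbp3, Igfbp4, Igfbp5, Igfbp6 and Igfbp7. The members were taken by name from a family in which Igfbp2 had been singled out for its values in these same libraries, so every member value below is a description and carries no test. Bone RNA was sequenced from female Sprague–Dawley rats bought at 8 weeks of age, in 3 groups of 3 libraries, each from its own biological replicate. Sham rats had only fat beside the ovary removed and were given CMC-Na, a cellulose vehicle, which the labels put at 1%, 2% and 3% for replicates 1, 2 and 3 although the written protocol gives 1% for every rat. OVX rats, a model of postmenopausal bone loss, had both ovaries removed and were given 1% CMC-Na. OVX-AS-IV-High rats had the same surgery and were given astragaloside IV (AS-IV), a saponin from Astragalus root, at 80 mg/kg. By the written protocol AS-IV was prepared in 1% CMC-Na. Dosing was by gavage, began 6 weeks after surgery and lasted 8 weeks. AS-IV was not given to intact rats here, and all treated rats carry the ovariectomy of the OVX group.

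IGF-I and IGF-II are small growth factors that signal through the receptor tyrosine kinase encoded by Igf1r, and bone matrix is one of their main stores. IGF binding proteins hold the ligands in the circulation and in the matrix, and may block or aid their access to the receptor. Proteases such as the pappalysins cut some binding proteins and free the ligand. IGFBP-2 is also known for contacts with integrins and with the receptor phosphatase encoded by Ptprz1.

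The libraries held 34874880 to 37298250 counts, and 16874 genes, all 9 members among them, passed the filter on low counts. Levels are counts scaled to library size with TMM factors (CPM), and fold changes are log2FC from edgeR's quasi-likelihood fit over all 9 libraries. "Past the thresholds" means an unadjusted p under 0.05 with an absolute log2FC over 1. An adjusted p under 0.05 was reached by 0 genes in OVX vs. Sham, OVX-AS-IV-High vs. OVX and OVX-AS-IV-High vs. Sham with edgeR, although 2775, 1089 and 2978 genes had an unadjusted p under 0.05, and DESeq2 gave 834, 37 and 1009 genes an adjusted p under 0.05. In limma on log2(FPKM + 1) those counts were 0, 0 and 4. OVX-AS-IV-High replicate 1 stood apart from its own group in Igfbp2 and in several marker sums, where it lay in the range of Sham. It was kept under its label, whether that label is right was not tested, and the members' fold changes in the AS-IV group are given with and without it.

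Igfbp2 and Igfbp5 are neighbours on chromosome 9 in the RefSeq gene order and lie on opposite strands. The 250 bases before each start site are printed because all OVX libraries lay below Sham for Igfbp2, whereas OVX and Sham overlapped for Igfbp5. They come from RefSeq on build GRCr8, which is not the build named in the submitters' processing notes (mRatBN7.2). Igfbp2 is read from chr9:81864561-81864810 on the plus strand and Igfbp5 from chr9:81914188-81914437 on the minus strand. Capitals mark an E-box (CACGTG) and then a GC box (GGGCGG).
Igfbp2: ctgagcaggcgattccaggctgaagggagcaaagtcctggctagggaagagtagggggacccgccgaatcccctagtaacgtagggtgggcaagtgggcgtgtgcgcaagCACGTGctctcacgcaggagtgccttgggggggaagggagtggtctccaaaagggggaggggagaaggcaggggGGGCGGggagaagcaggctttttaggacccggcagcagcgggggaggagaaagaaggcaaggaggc
Igfbp5: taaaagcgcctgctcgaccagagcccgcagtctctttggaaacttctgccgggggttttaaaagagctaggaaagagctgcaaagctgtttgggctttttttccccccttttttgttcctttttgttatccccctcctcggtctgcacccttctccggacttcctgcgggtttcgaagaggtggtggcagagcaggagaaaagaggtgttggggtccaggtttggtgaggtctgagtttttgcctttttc
The search covered 6 motifs on both strands of windows from 250 bases before to 50 bases after the start of each gene. Besides the E-box and the GC box, these were the estrogen response element (GGTCA and TGACC on either side of 3 bases), its half-element AGGTCA, the TATA box TATAAA and the CCAAT box CCAAT. In the Igfbp2 window the E-box began 140 bases and the GC box 66 bases before the start. An E-box was held by 6.42% and a GC box by 33.1% of all 33469 windows of that length. The Igfbp5 window held none of the 6 motifs. GC content was 66.7% for Igfbp2 and 50.7% for Igfbp5, where the median over all windows was 51.7%. The full estrogen response element was in the windows of 0 of the 9 members and in 0.0269% of all windows. Its half-element was in those of Igf1 and Igfbp6, and in 16.2% of all windows. These matches describe letters and not bound sites.

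Igfbp2 was the member with the lowest relative level after ovariectomy. Its counts were 501, 771 and 696 in Sham replicates 1 to 3 and 13, 43 and 12 in OVX replicates 1 to 3. In CPM these were 13.8, 22.6 and 19.6 in Sham against 0.354, 1.13 and 0.326 in OVX. All 3 OVX libraries lay below all 3 Sham libraries, and each held between 1.74% and 6.08% of the Sham mean. The means were 18.7 ± 4.50 CPM in Sham and 0.605 ± 0.459 CPM in OVX (SD, n = 3 each). The log2FC was -4.94 with a standard error of 1.30, which is 30.6-fold lower in OVX. It was the lowest log2FC of the 16874 genes tested. Leaving out OVX replicate 2, the highest OVX library, lowered the log2FC to -5.76, and the other libraries left out in turn gave values down to -5.12 and up to -4.64. In bulk tissue, fewer cells that express a gene and less RNA per cell cannot be told apart.

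In the AS-IV group the 3 libraries did not share a level of Igfbp2. Replicate 1 had 584 counts (16.1 CPM), replicate 2 had 38 (1.03 CPM) and replicate 3 had 10 (0.275 CPM). Replicate 1 therefore stood at 86.2% of the Sham mean, inside the range of the Sham libraries, while replicates 2 and 3 stood at 5.51% and 1.47%, and replicates 2 and 3 lay within or below the range of the OVX libraries. No library lay near the group mean of 5.79 ± 8.91 CPM (SD, n = 3). The log2FC of OVX-AS-IV-High vs. OVX was 3.25 with a standard error of 1.24, and 6 genes, Igfbp2 included, had a value this high. Leaving out OVX-AS-IV-High replicate 1 gave 0.11 with a standard error of 0.66, and Igfbp2 was no longer past the thresholds. Without OVX replicate 2 it was 4.08.

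The replicate number is not a documented pairing of rats. With it as a block, the log2FC of OVX-AS-IV-High vs. OVX was 2.40 over all 9 libraries, Sham included, and 1.69 over these groups alone. Igfbp2 was past the thresholds in neither fit. The call was also lost without OVX replicate 1 (log2FC 2.98) and without OVX replicate 3 (log2FC 2.95). Against Sham, Igfbp2 in the AS-IV group had a log2FC of -1.69 with a standard error of 1.09, not past the thresholds. Without OVX-AS-IV-High replicate 1 this was -4.83 with a standard error of 0.71, past the thresholds and close to the OVX vs. Sham value. Both comparisons of the AS-IV group share libraries with OVX vs. Sham, so their signs are not independent of it.

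**Figure D1:**
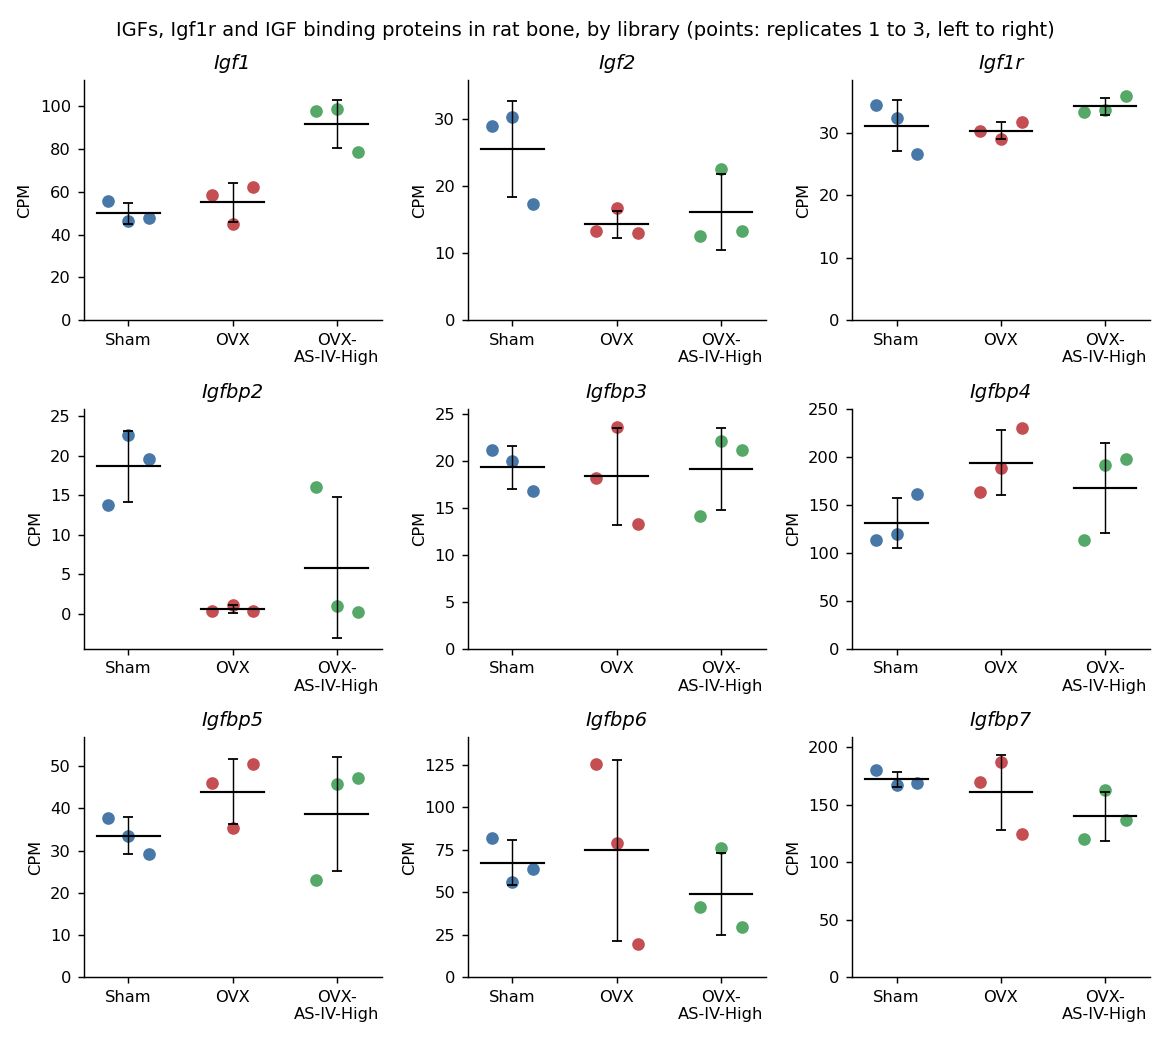
Each panel plots 1 gene, with the level in CPM on the y axis and the 3 groups on the x axis; points are replicates 1 to 3 from left to right, the horizontal bar is the mean and the error bar the SD (n = 3), which runs below 0 for Igfbp2 in OVX-AS-IV-High. Igfbp2 lies at 13.8 to 22.6 CPM in Sham and at 0.326 to 1.13 CPM in OVX, and its AS-IV group splits into 1 library at 16.1 CPM and 2 libraries at 1.03 and 0.275 CPM.

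Of the ligands, Igf1 was higher in treated bone than in either other group. Igf1 encodes IGF-I, the main mediator of growth hormone action on bone. It had 55.6, 46.3 and 47.7 CPM in Sham, 58.6, 44.8 and 62.1 CPM in OVX, and 97.9, 98.4 and 78.6 CPM in OVX-AS-IV-High. All 3 treated libraries lay above the other 6, and Sham and OVX overlapped. The log2FC was 0.73 (standard error 0.15) against OVX, a 1.66-fold difference, and 0.88 (standard error 0.15) against Sham. With each library left out in turn the former stayed between 0.60 and 0.83, so, unlike the value of Igfbp2, it did not rest on replicate 1. At 0.15 (standard error 0.15), the OVX vs. Sham log2FC was no larger than its error. Igf1 did not reach the log2FC threshold of 1 in any comparison.

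Igf2, which encodes the fetal growth factor IGF-II, was lower in OVX. Its levels were 29.0, 30.3 and 17.4 CPM in Sham, 13.3, 16.7 and 13.0 CPM in OVX, and 12.6, 22.6 and 13.2 CPM in OVX-AS-IV-High. OVX and Sham did not overlap, but Sham replicate 3 (17.4 CPM) and OVX replicate 2 (16.7 CPM) were close, and the AS-IV libraries spanned both ranges. The log2FC of OVX vs. Sham was -0.84 (standard error 0.27), short of the threshold, and it was -1.05 and past the thresholds without Sham replicate 3. OVX-AS-IV-High vs. OVX gave 0.17 (standard error 0.27). Expressed per length, Igf1 exceeded Igf2 in each of the 9 libraries. The ratio of their FPKM was 1.45, 1.16 and 2.09 in Sham bone, 3.35, 2.04 and 3.64 in OVX bone, and 5.93, 3.30 and 4.51 in OVX-AS-IV-High bone. The ratio of OVX replicate 2 fell within the Sham range, whereas the 3 AS-IV values lay above all Sham values.

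Igf1r, the receptor through which both ligands act, differed little. It had 34.5, 32.4 and 26.7 CPM in Sham, 30.3, 29.0 and 31.8 CPM in OVX, and 33.4, 33.7 and 35.9 CPM in OVX-AS-IV-High. The AS-IV libraries lay just above the OVX libraries, with a log2FC of 0.18 (standard error 0.11), and OVX fell inside the Sham range (log2FC -0.04, standard error 0.11).

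Among the other binding proteins, Igfbp4 and Igfbp5 had higher means in OVX, on the side opposite to Igfbp2. Igfbp4 encodes a binding protein best known for holding IGFs back from the receptor, and it is a substrate of the protease encoded by Pappa. It had 113.2, 120.0 and 161.3 CPM in Sham, 163.8, 188.6 and 230.2 CPM in OVX, and 113.9, 192.0 and 198.5 CPM in OVX-AS-IV-High. OVX lay above Sham without overlap (log2FC 0.56, standard error 0.23), although OVX replicate 1 (163.8 CPM) was close to Sham replicate 3 (161.3 CPM). OVX-AS-IV-High replicate 1, the library with high Igfbp2, had the lowest Igfbp4 of its group, inside the Sham range. Igfbp5, which encodes an abundant binding protein of bone matrix, had 37.8, 33.5 and 29.1 CPM in Sham, 46.0, 35.3 and 50.4 CPM in OVX, and 23.1, 45.7 and 47.1 CPM in OVX-AS-IV-High. OVX and Sham overlapped (log2FC 0.39, standard error 0.25), and OVX-AS-IV-High replicate 1 was the lowest of all 9 libraries. Rpl37a, a ribosomal protein gene and the neighbour of Igfbp2 on its other side, kept to 468.1 to 525.9 CPM across the 9 libraries.

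Igfbp3, Igfbp6 and Igfbp7 overlapped between OVX and Sham. Igfbp3 encodes the main IGF carrier of serum. Its levels were 21.2, 20.0 and 16.8 CPM in Sham, 18.2, 23.6 and 13.2 CPM in OVX, and 14.2, 22.1 and 21.2 CPM in OVX-AS-IV-High, with log2FC of -0.07 and 0.06 in the first 2 comparisons (standard error 0.23 each). Igfbp6, whose product prefers IGF-II, had 82.2, 56.3 and 63.8 CPM in Sham, 125.7, 78.9 and 19.6 CPM in OVX, and 41.7, 76.2 and 29.4 CPM in OVX-AS-IV-High. Its spread within OVX was the widest of these 3 genes relative to the mean, and its standard errors were 0.56 beside log2FC of 0.15 in OVX vs. Sham and -0.61 after AS-IV against OVX. Both values turned on single OVX libraries. Without OVX replicate 1, the highest, they were -0.45 and -0.0045, and without OVX replicate 3, the lowest, they were 0.60 and -1.06, the last past the thresholds. With the replicate number as a block over all 9 libraries they were -0.14 and -0.43. Igfbp7, whose product binds IGFs weakly and sits in vessel walls and matrix, had 179.8, 166.9 and 169.2 CPM in Sham, 170.1, 187.4 and 124.7 CPM in OVX, and 120.3, 162.8 and 136.9 CPM in OVX-AS-IV-High. All 3 AS-IV libraries lay below all Sham libraries for Igfbp7 (log2FC -0.30, standard error 0.16).

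Set against the family, Igfbp2 was separate in size. The other 8 members had log2FC between -0.84 and 0.56 in OVX vs. Sham (median 0.05, beside -0.01 over all genes tested). In OVX-AS-IV-High vs. OVX they lay between -0.61 and 0.73 (median -0.06, all genes -0.02). In OVX-AS-IV-High vs. Sham the range was -0.66 to 0.88 (median 0.06, all genes -0.01). Without OVX-AS-IV-High replicate 1, the log2FC against OVX were 0.68 for Igf1, 0.33 for Igf2, 0.19 for Igf1r, 0.24 for Igfbp3, 0.01 for Igfbp4, 0.08 for Igfbp5, -0.50 for Igfbp6 and -0.10 for Igfbp7. Those against Sham were 0.83 for Igf1, -0.51 for Igf2, 0.16 for Igf1r, 0.17 for Igfbp3, 0.57 for Igfbp4, 0.47 for Igfbp5, -0.35 for Igfbp6 and -0.20 for Igfbp7. The values of Igf1 moved by less than their standard errors, while Igfbp4 and Igfbp5 lay nearer to OVX and farther from Sham.

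Past the thresholds in OVX vs. Sham stood 1 of the 9 members, Igfbp2, where 3.11% of all genes tested were past them. In OVX-AS-IV-High vs. OVX it was again 1 member, Igfbp2, where the share over all genes was 0.83%. In OVX-AS-IV-High vs. Sham 0 members were past them, beside 3.15% of all genes. Groups did not overlap for 3 members in OVX vs. Sham (Igf2 and Igfbp2 lower, Igfbp4 higher), where 23.3% of all genes did not overlap. They did not overlap for 2 members in OVX-AS-IV-High vs. OVX (Igf1 and Igf1r higher; 12.7% of all genes) and for 2 in OVX-AS-IV-High vs. Sham (Igf1 higher, Igfbp7 lower; 19.9% of all genes). With a log2FC threshold of 0.58 the count was 2 members in OVX vs. Sham (Igf2 and Igfbp2; 6.96% of all genes), 2 after AS-IV against OVX (Igf1 and Igfbp2; 2.19%) and 2 after AS-IV against Sham (Igf1 and Igf2; 6.92%). Nothing is read from these counts, because the family was assembled around a member picked in these comparisons.

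**Figure D2:**
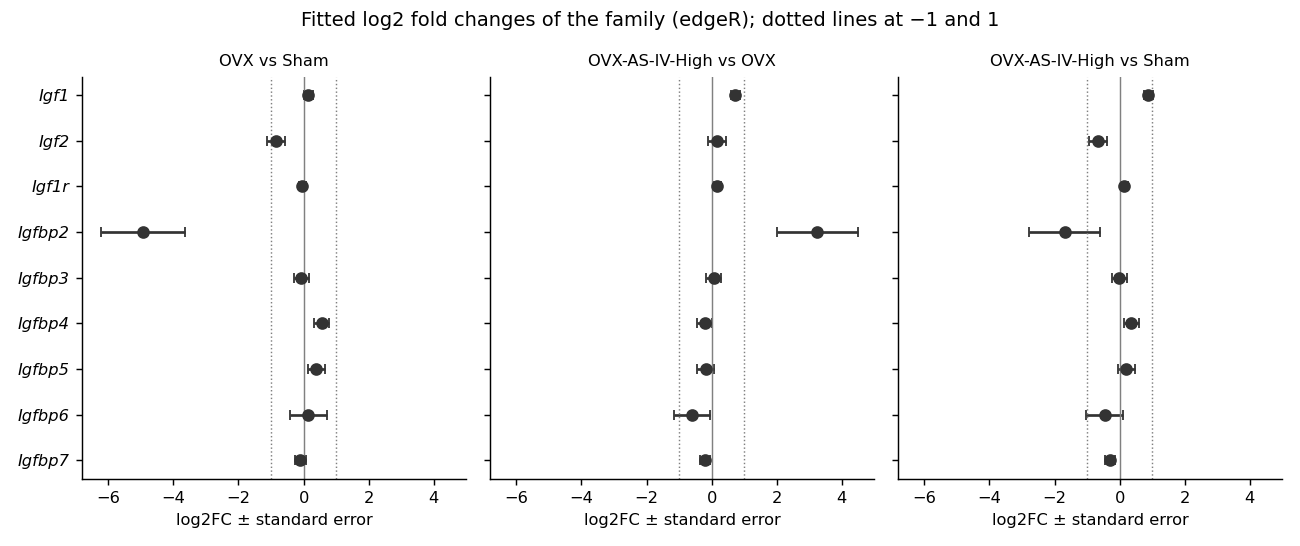
The x axes give the log2FC of each member in the 3 comparisons, with the standard error of the edgeR fit as bars and dotted lines at the log2FC threshold of 1 in each direction; genes stand on the y axis. Igfbp2 lies at -4.94 in the left panel (OVX vs. Sham) and at 3.25 in the middle panel (OVX-AS-IV-High vs. OVX), the latter 0.11 without OVX-AS-IV-High replicate 1, while the other 8 members stay between -0.84 and 0.88.

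Per length, in FPKM, Igfbp2 moved through the order of the family. In Sham, the mean FPKM ran from Igfbp7 (155) through Igfbp6 (77.5), Igfbp4 (60.5), Igfbp5 (20.5), Igfbp2 (14.3), Igfbp3 (7.97), Igf1 (5.31) and Igf2 (3.58) to Igf1r (2.24). Neighbours in this order overlapped in their library ranges only at Igfbp6 and Igfbp4 and at Igf2 and Igf1r. Igfbp2 was thus the fifth member in Sham. In OVX it was the last, with a mean of 0.477 FPKM below the 2.04 FPKM of Igf2, and these ranges did not overlap. In OVX-AS-IV-High its range of 0.212 to 12.1 FPKM reached across those of Igf1, Igf1r, Igf2 and Igfbp3, so it has no place in the order. These levels depend on the lengths behind the authors' FPKM, which came to 1295 bases for Igfbp2, 9361 for Igf1 and 7114 for Igf2.

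Igfbp2 made up 3.02%, 5.50% and 4.44% of the summed FPKM of the 6 binding proteins in Sham. In OVX the shares were 0.0667%, 0.230% and 0.0903%, and in OVX-AS-IV-High 5.13%, 0.220% and 0.0738%. The sum itself did not separate the groups, with 311 to 358 FPKM in Sham, 279 to 415 in OVX and 236 to 359 in OVX-AS-IV-High. Igfbp7 was the largest part in each library, at 37.5% to 47.6%. The share of Igfbp4 was 14.8%, 17.5% and 21.9% in Sham and 18.4%, 22.9% and 38.2% in OVX, which overlapped. Igfbp6 ranged from 8.09% in OVX replicate 3 to 35.3% in OVX replicate 1.

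**Figure D3:**
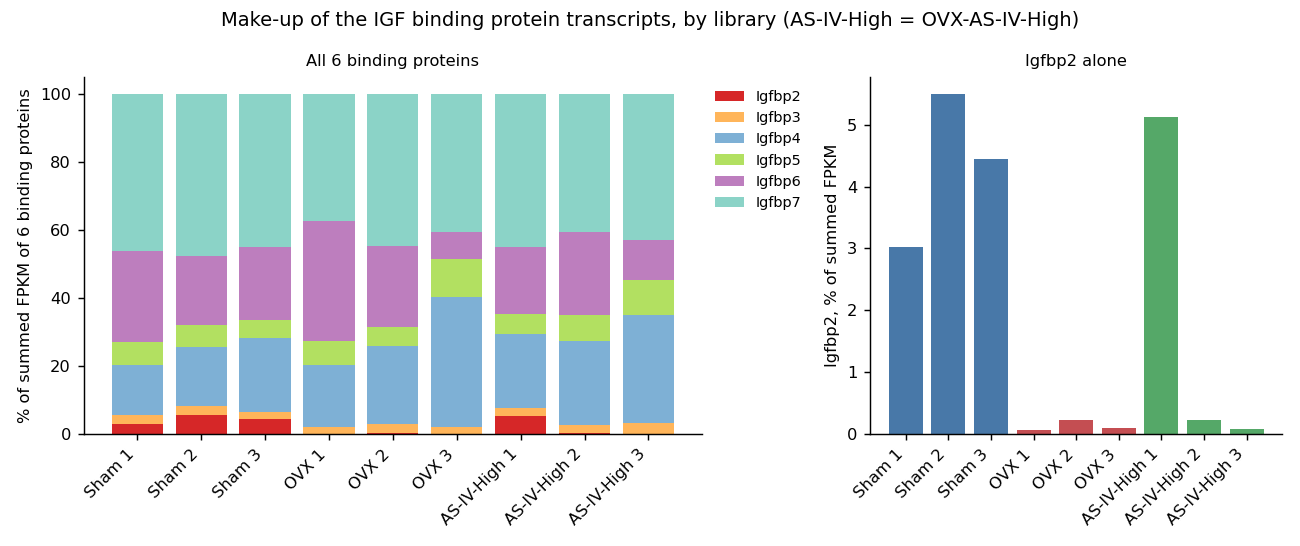
The left panel stacks the share of each of the 6 binding proteins in their summed FPKM (y axis, percent) for each library (x axis), and the right panel shows Igfbp2 alone with bars from 0. Igfbp2 takes 3.02% to 5.50% in Sham and 5.13% in OVX-AS-IV-High replicate 1, and 0.0667% to 0.230% in the other 5 libraries.

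Bone samples can hold bone cells, marrow, fat, muscle and cartilage, so marker sums of these cell types are set beside the members. Osteoblast and osteocyte markers (10 of 10 in the tables, with Bglap and Col1a1 the highest) summed to 1286 to 2821 FPKM in Sham, 2656 to 4469 FPKM in OVX, and 1426, 3758 and 2643 FPKM in OVX-AS-IV-High replicates 1 to 3. Adipocyte markers (7 of 7, led by Fabp4 and Adipoq) summed to 364 to 455 FPKM in Sham, 535 to 708 FPKM in OVX, and 403, 656 and 647 FPKM in OVX-AS-IV-High. The adipocyte sums of OVX lay above those of Sham, on the side opposite to Igfbp2, while the osteoblast sums of OVX overlapped Sham through Sham replicate 3. In both lists OVX-AS-IV-High replicate 1 lay within the Sham range. Igfbp4 and the osteoblast sum were both highest in replicate 3 within Sham, higher on average in OVX, and lowest in replicate 1 within the AS-IV group. The adipocyte, osteoclast, macrophage, marrow stromal cell and B lineage sums met the same description, so it is not particular to osteoblasts. Within OVX and within the AS-IV group the osteoblast sum was highest in replicate 2, whereas Igfbp4 was highest in replicate 3. B lineage markers (5 of 6 in the tables, led by Cd79a and Cd79b) were, like adipocyte markers, higher in OVX without overlap. They summed to 347 to 466 FPKM in Sham, 633 to 671 FPKM in OVX, and 411, 465 and 612 FPKM in OVX-AS-IV-High.

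Skeletal muscle markers (7 of 8 in the tables, led by Acta1 and Mb) summed to 4586, 3504 and 732 FPKM in Sham, 1656, 879 and 732 FPKM in OVX, and 2484, 958 and 271 FPKM in OVX-AS-IV-High. Sham and OVX overlapped in this sum through Sham replicate 3, and OVX-AS-IV-High replicate 1 had the highest sum of its group. Chondrocyte markers (6 of 6, led by Col2a1 and Comp) summed to 500, 292 and 668 FPKM in Sham, 156, 315 and 424 FPKM in OVX, and 200, 413 and 318 FPKM in OVX-AS-IV-High, where replicate 1 had the lowest sum of its group and the highest Igfbp2. The sums of the other 7 lists, osteoclast and macrophage among them, overlapped between OVX and Sham. No marker gene with a row in the tables was at 0 in all 9 libraries. The part of cell makeup in the values of Igfbp2, Igfbp4 and the other members was not tested.

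**Figure D4:**
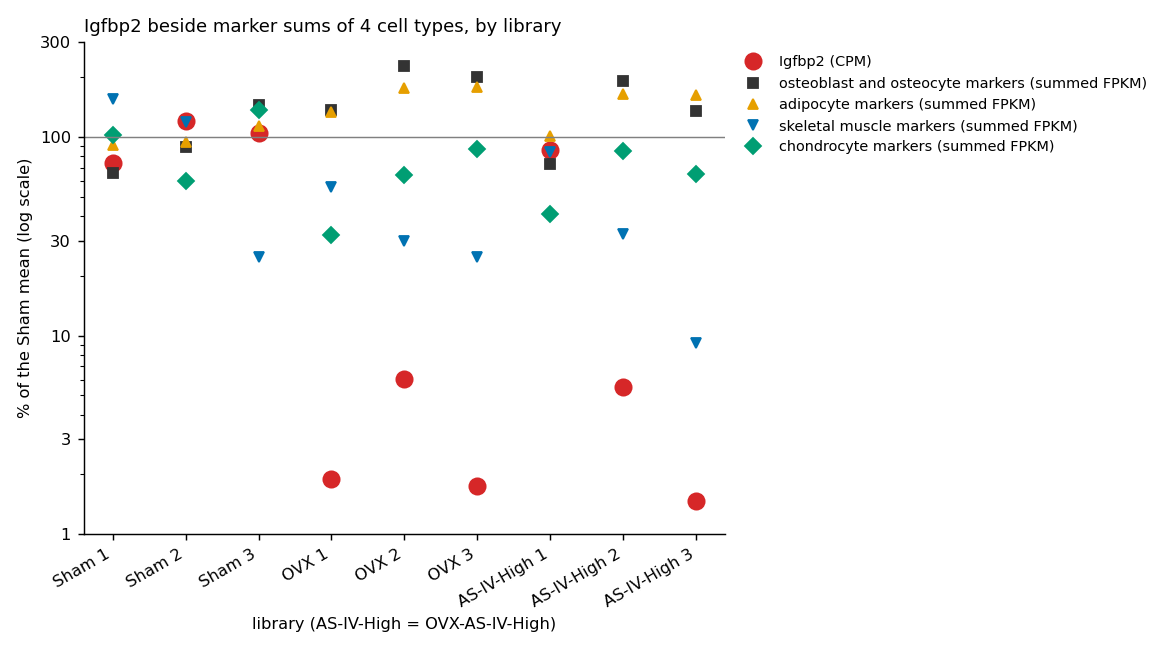
The y axis gives, on a log scale, the Igfbp2 level in CPM and the summed FPKM of 4 marker lists, each as a percent of its Sham mean (horizontal line at 100), for each library on the x axis. Igfbp2 stands at 1.47% to 6.08% in 5 libraries of rats without ovaries, where the osteoblast and adipocyte sums are at 134% to 229% of the Sham mean, and OVX-AS-IV-High replicate 1 has 86.2%, 73.1% and 101% for Igfbp2, osteoblast and adipocyte markers. In the same 5 libraries the skeletal muscle sum is at 9.21% to 56.3% and the chondrocyte sum at 32.0% to 87.1%. OVX-AS-IV-High replicate 1 has 84.5% and 41.0% for these, and Sham replicate 3 has 24.9% for muscle, where its Igfbp2 is at 105%.

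By the Pearson correlation of log2 CPM over the 9 libraries, the genes most like Igfbp2 were Faap100 (r = 0.958), Tmem81 (r = 0.950), Pidd1 (r = 0.948), Tpra1 (r = 0.946) and Lamb2 (r = 0.942). The 9 libraries come from 3 groups and fall into a high and a low range of Igfbp2. OVX-AS-IV-High replicate 1 lies in the high range with Sham, and the rest of its group lies in the low range with OVX. These values therefore describe a ranking and carry no test. All 5 genes had smaller ranges than Igfbp2 on the log2 scale. Lamb2, which encodes a laminin chain of basement membranes, had 193.8, 224.2 and 174.0 CPM in Sham, 95.0, 113.4 and 93.9 CPM in OVX, and 139.8, 103.1 and 87.8 CPM in OVX-AS-IV-High. Like Igfbp2, Lamb2 had OVX below Sham and OVX-AS-IV-High replicate 1 the highest of its group, at a log2FC of -0.97 in OVX vs. Sham. That replicate lay below all Sham libraries for Lamb2, whereas it lay inside the Sham range for Igfbp2. Among the members, r with Igfbp2 was lowest for Igfbp4 (-0.84) and Igfbp5 (-0.82) and highest for Igf2 (0.55).

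The pathway around the family was taken from a list of 47 genes grouped by role, of which 43 were tested. In OVX vs. Sham, 0 were past the thresholds with higher and 1 with lower expression in OVX, next to 3.11% of all genes. At an unadjusted p under 0.05 alone, 4 were higher and 5 lower, 9 of 43 where 16.4% of all genes had such a p. By edgeR's quasi-likelihood test, the smallest adjusted p of the list over all genes was 0.162. The median log2FC of the 43 genes was 0.04, beside -0.01 over all genes. When the AS-IV group was compared with OVX and with Sham, 0 genes of the list were past the thresholds in either case, and 3 and 7 had an unadjusted p under 0.05, where 6.45% and 17.6% of all genes did.

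The gene past the thresholds was Pappa2, which encodes a protease that cuts IGFBP-3 and IGFBP-5. It had 4.37, 3.96 and 2.17 CPM in Sham, 1.39, 1.48 and 2.17 CPM in OVX, and 2.40, 2.84 and 1.98 CPM in OVX-AS-IV-High. Its log2FC in OVX vs. Sham was -1.06 (standard error 0.33, adjusted p = 0.188 by edgeR's quasi-likelihood test), and Sham replicate 3 and OVX replicate 3 had nearly the same level. Without Sham replicate 1, Sham replicate 2, OVX replicate 1 or OVX replicate 2 the log2FC was -0.87, -0.95, -0.94 or -0.97, each just under the threshold in size, and the call was lost. Stc1, which encodes stanniocalcin-1, an inhibitor of pappalysins, had 4.04, 5.46 and 3.47 CPM in Sham and 1.25, 3.06 and 2.22 CPM in OVX. These did not overlap, with a log2FC of -0.99 (adjusted p = 0.210, edgeR), just short of the threshold, and it was past the thresholds without Sham replicate 1, Sham replicate 3 or OVX replicate 2.

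In the remaining role groups the genes with the largest log2FC in OVX vs. Sham were as follows, all tested with edgeR. Of the receptors, Igf2r, which clears IGF-II, had a log2FC of 0.22 (adjusted p = 0.270), and Insrr, an orphan relative of the insulin receptor, had 1.52 (adjusted p = 0.350) at under 1 CPM in each library. Igfals, the serum partner of IGF and IGFBP-3 complexes, was at 0.271 to 1.11 CPM, with a log2FC of 0.15. Growth hormone signalling gave 0.35 for Ghr, the growth hormone receptor, and -0.30 for Stat5a, a transcription factor on its pathway but not the only member of that kind in the list. Of the receptor adaptors, Grb10, a brake on IGF and insulin signalling, had -0.46 (adjusted p = 0.188) and Grb14 had 0.50 (adjusted p = 0.290).

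The downstream branch gave 0.48 for Foxo1, the transcription factor that Akt switches off (adjusted p = 0.162). The integrin genes Itgb3 and Itga5 had 0.52 and -0.31. Igf2bp2, which encodes an Igf2 mRNA binding protein, had -0.67 (adjusted p = 0.316). H19, the imprinted neighbour of Igf2, had -0.77 (adjusted p = 0.576), with 847, 629 and 237 CPM in Sham and 278, 350 and 377 CPM in OVX, and overlapped where Igf2 did not. OVX-AS-IV-High replicate 3 had 58.8 CPM of H19, the lowest of the 9 libraries.

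**Figure D5:**
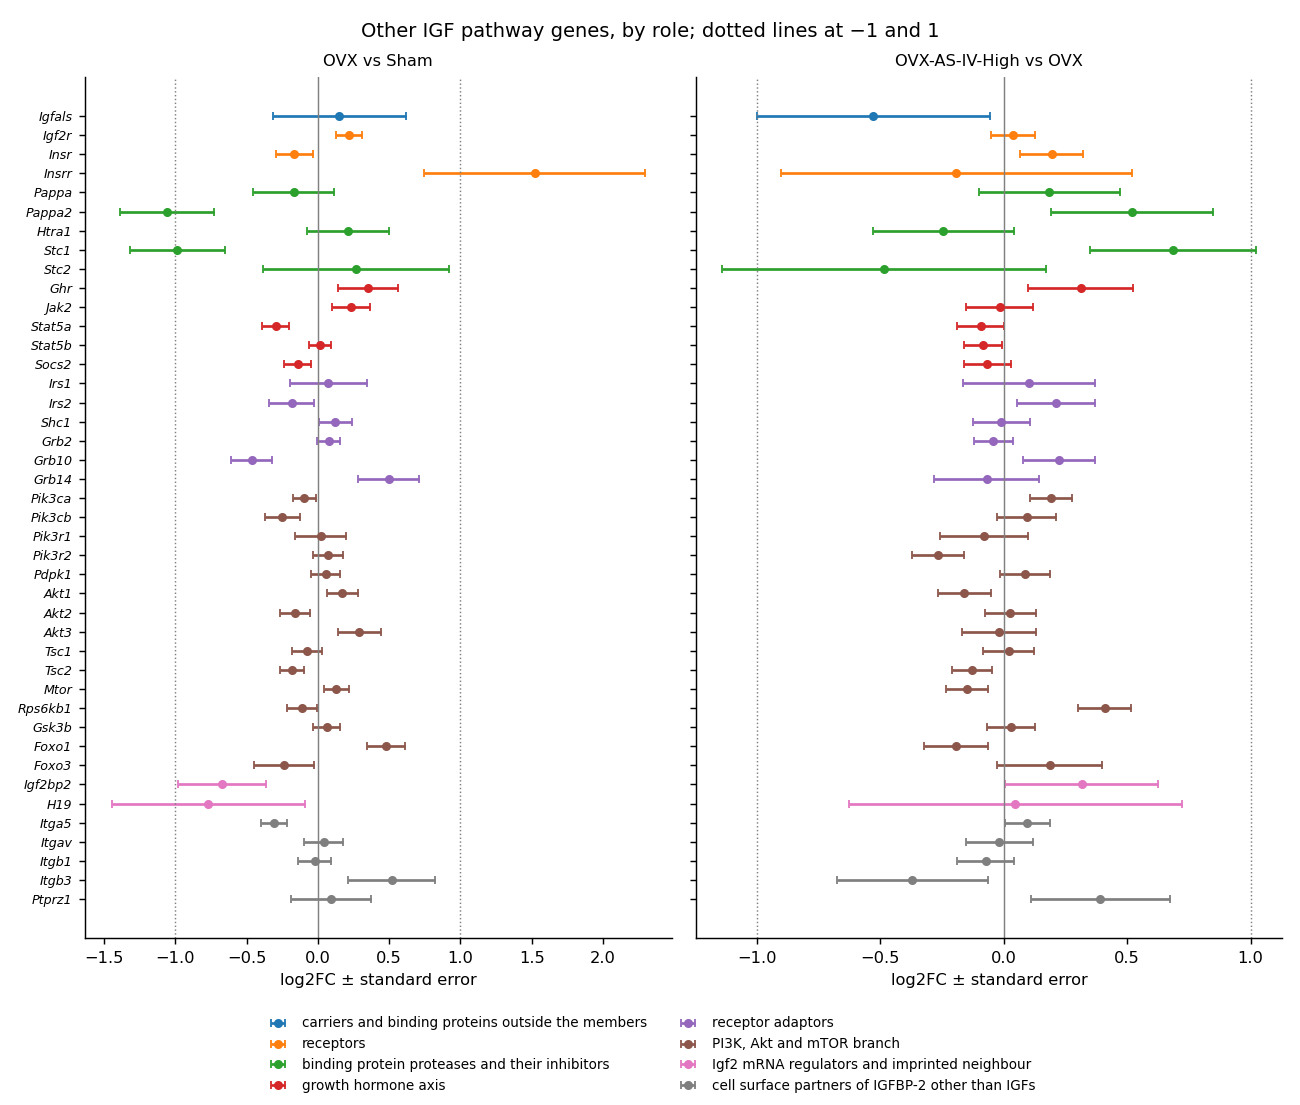
Each row of the y axis is a tested pathway gene, coloured by role; the x axes give the log2FC with its standard error in OVX vs. Sham (left) and OVX-AS-IV-High vs. OVX (right), with dotted lines at the log2FC threshold of 1 in each direction. Pappa2 at -1.06 is the gene past both thresholds in OVX vs. Sham, and Insrr at 1.52 lies outside the lines with an adjusted p of 0.350 by edgeR.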

How the data were processed

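Per the labels, TRIzol RNA from bone was poly(A)-selected for strand-specific, paired-end libraries. The authors cleaned the reads, used Tophat and Bowtie2 for alignment and eXpress for quantification; the submitters' processing notes name the build mRatBN7.2. They deposited whole-number counts without normalization and FPKM values for 23026 genes. The deposited FPKM were the same counts divided by library size and a fixed length per gene, so both tables carry the same information. Which part of each gene those lengths cover is not given in the sources used here.

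Counts were tested with edgeR 4.0.16 (quasi-likelihood, TMM, filterByExpr minimum count of 10, group as the only term, all 9 libraries), in R 4.3.3. Benjamini-Hochberg adjustment ran over all 16874 genes tested. The study used DESeq; its results section sets the log2FC threshold at 1 and its methods section at 0.58. DESeq2 1.42.0, limma 3.58.1, other filters, size factors, blocks and each library left out were the alternatives. On simulated counts of OVX vs. Sham for 16874 genes, 200 of them changed 3-fold, edgeR gave 131 changed and 8 unchanged genes an adjusted p under 0.05, and 183 and 211 were past the thresholds. A gene at 3 counts or fewer was taken as at the limit of detection; all members lay above it in each library. No pair of libraries held identical values.

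Members, pathway and marker lists were chosen with earlier results of these data known. Named were all members, pathway genes past the thresholds in the main fit or with the 2 largest absolute log2FC of a role group in OVX vs. Sham, the 5 genes most correlated with Igfbp2 in log2 CPM (prior count 2), its chromosomal neighbours, and the 2 highest genes of each marker list described. Igf2bp1, Mylpf and Vpreb1 are not analysed here, and 1 pathway gene that this rule names is not reported here or plotted. All 9 members matched the RefSeq promoter table of GRCr8 by gene identifier.

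Deviations from the group means were correlated between libraries with the same replicate number. OVX with OVX-AS-IV-High gave r = 0.310, 0.158 and 0.130. Sham gave 0.200, -0.161 and 0.253 with OVX, and 0.314, -0.158 and 0.435 with OVX-AS-IV-High. The sample titles give only a replicate number, and the protocol divided ovariectomized rats into groups at random. These values therefore do not establish a pairing of rats, and what they reflect was not tested. The main fit used no block, and the block fits are alternatives.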

Additional observations from a re-analysis of the deposited data

How the results depend on the processing

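The log2FC of Igfbp2 in OVX vs. Sham was -3.38 with limma on log2(FPKM + 1) and ranged from -5.76 to -4.64 when single libraries were left out. In OVX-AS-IV-High vs. OVX it was 1.07 with limma on log2(FPKM + 1), and between 0.11 and 4.08 with each library left out, the low end without OVX-AS-IV-High replicate 1. In OVX-AS-IV-High vs. Sham it lay between -4.83 and -1.13. Members past the thresholds numbered 2 in each comparison with a log2FC threshold of 0.58. With each library left out they numbered 1 to 2 in OVX vs. Sham (2 without Sham replicate 3), 0 to 1 after AS-IV against OVX, and 0 to 1 after AS-IV against Sham (1 without OVX-AS-IV-High replicate 1). In OVX-AS-IV-High vs. OVX 0 members were past them with limma at either pseudocount (1 or 0.1) and with the replicate block over all 9 libraries or over the 2 groups; without OVX replicate 3 the count stayed at 1 but the gene was Igfbp6. In OVX-AS-IV-High vs. Sham 1 member, Igfbp2, was past them with limma at either pseudocount and with the replicate block over the 2 groups. Pathway genes past the thresholds in OVX vs. Sham numbered 0 with limma at either pseudocount, 2 with either replicate block, 2 at 0.58, and 0 to 2 with each library left out (0 without Sham replicate 2 or OVX replicate 1, 2 without Sham replicate 3). In OVX-AS-IV-High vs. OVX they numbered 0 to 1 with each library left out (1, Stc1, without OVX replicate 2), and in OVX-AS-IV-High vs. Sham 1 with the replicate block over the 2 groups (H19) and 1 at 0.58. The cause of these shifts was not tested, beyond the lower threshold and the larger pseudocount, which by construction admit more genes and shrink low levels. For the other 8 members, 390 of 408 alternative values kept their direction, and the 18 that did not belong to log2FC of at most 0.21 in absolute size. With 10 to 43 counts in 5 libraries, the low levels of Igfbp2 are measured with wide relative counting error, which covers counting only.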
